A study of Homo sapiens with 14 samples.

Results

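Glucose breakdown and the response to low oxygen were followed here through 45 genes, made up of glucose and lactate transporters, the enzymes of glycolysis with their regulators, and genes of the hypoxia-inducible factor (HIF) pathway. The genes were listed by name, and each was read from its probe set with the highest mean log2 signal over all 14 arrays. A probe set naming the gene alone existed for 42 of the 45 genes, and 38 of these lay above the filter on dim signals (a mean signal of 79.1), out of 7720 such genes in all. SLC16A1, SLC16A3 and CA9 were not analysed here. PFKFB2, PFKFB4, VHL and ANGPTL4 were below the filter.

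The cells were U2OS, a human osteosarcoma line, carrying ER-E2F1, in which E2F1 is joined to part of the estrogen receptor, so that adding 4-hydroxytamoxifen (OHT) turns it on. All cells, controls included, carried ER-E2F1 and had been infected with a lentivirus. The virus encoded a scrambled hairpin or 1 of 2 hairpins, shFOXO33 and shFOXO707. Either one targets FOXO1 together with FOXO3, so the parts of these genes cannot be told apart. From 24 h after infection cells were held for 24 h in medium lacking serum, and then for 6 h with 20 nM OHT or without it. Scrambled cells had 4 arrays without and 4 with OHT, and each hairpin had 1 array without and 2 with OHT. Values are signals on a linear scale, made with MAS5, in which every array has the same trimmed mean. Whether the arrays of a group came from separate cultures is not stated, and p-values therefore reflect only how these arrays vary, which may be technical. In such bulk samples, fewer cells with a transcript and less transcript per cell cannot be told apart.

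In glycolysis, glucose enters through transporters such as SLC2A1 (GLUT1) and SLC2A3 (GLUT3), is trapped by hexokinases, and is carried through a chain of enzymes to pyruvate, which lactate dehydrogenase turns into lactate. HIF is a pair of an oxygen-sensitive alpha subunit, HIF1A or EPAS1 (HIF-2 alpha), with ARNT. When oxygen is present, prolyl hydroxylases such as EGLN1 mark the alpha subunit, and VHL has it destroyed, so HIF is mainly set by protein stability, which arrays do not measure. Many glycolytic genes and angiogenic factors such as VEGFA are textbook HIF targets, and so are EGLN1 and the histone demethylase KDM3A. FOXO1 and FOXO3 are forkhead transcription factors held back by growth factor signalling, and E2F1 drives entry into S phase and, at high activity, cell death.

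HIF binds a short core, ACGTG or GCGTG. The RefSeq promoter table (GRCh38.p14) held 38 of the 45 genes, and the core stood on either strand within 250 bases before the start in 26 of these 38 (68.4%). Of the 34 of these genes that were tested, 23 had the core (67.65%). The same letters stood in 59.5% of the 6440 promoters of tested genes and in 43.1% of all 27305 promoters. The core is short, and a match here is a description and not a site. Shown are the windows of the 4 genes of the HIF branch that rose most with OHT and of 2 that fell, the transporter SLC2A1 and BNIP3. Capitals mark the core, which may read on either strand, and each sequence runs 5′ to 3′ along the gene, ending at the base before the start.
VEGFC, chr4:176792923-176793172, minus strand: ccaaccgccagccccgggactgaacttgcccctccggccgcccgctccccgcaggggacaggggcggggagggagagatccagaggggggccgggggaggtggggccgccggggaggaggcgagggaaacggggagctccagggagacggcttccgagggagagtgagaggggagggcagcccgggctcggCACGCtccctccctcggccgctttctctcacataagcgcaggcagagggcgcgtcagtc
EPAS1, chr2:46297157-46297406, plus strand: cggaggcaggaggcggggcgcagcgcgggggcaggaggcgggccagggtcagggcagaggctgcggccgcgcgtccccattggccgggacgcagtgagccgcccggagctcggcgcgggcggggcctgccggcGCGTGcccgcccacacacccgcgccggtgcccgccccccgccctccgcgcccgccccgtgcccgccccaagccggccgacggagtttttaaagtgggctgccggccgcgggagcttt
EGLN1, chr1:231422288-231422537, minus strand: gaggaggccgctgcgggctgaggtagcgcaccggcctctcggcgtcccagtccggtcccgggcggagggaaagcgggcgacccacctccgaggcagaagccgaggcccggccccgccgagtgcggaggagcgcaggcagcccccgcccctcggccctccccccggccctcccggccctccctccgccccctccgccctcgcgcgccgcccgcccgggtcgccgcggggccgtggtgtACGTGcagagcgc
KDM3A, chr2:86441121-86441370, plus strand: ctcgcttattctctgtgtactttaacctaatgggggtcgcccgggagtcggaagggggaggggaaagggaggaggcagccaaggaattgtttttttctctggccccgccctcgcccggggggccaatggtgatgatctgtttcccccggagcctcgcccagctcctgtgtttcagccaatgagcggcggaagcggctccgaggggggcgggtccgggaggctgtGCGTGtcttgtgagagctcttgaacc
SLC2A1, chr1:42958869-42959118, minus strand: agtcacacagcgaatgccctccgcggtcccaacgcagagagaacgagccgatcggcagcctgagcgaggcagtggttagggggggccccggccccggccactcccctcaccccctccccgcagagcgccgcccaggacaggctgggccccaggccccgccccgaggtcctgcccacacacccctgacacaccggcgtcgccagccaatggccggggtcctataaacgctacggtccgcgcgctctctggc
BNIP3, chr10:131981924-131982173, minus strand: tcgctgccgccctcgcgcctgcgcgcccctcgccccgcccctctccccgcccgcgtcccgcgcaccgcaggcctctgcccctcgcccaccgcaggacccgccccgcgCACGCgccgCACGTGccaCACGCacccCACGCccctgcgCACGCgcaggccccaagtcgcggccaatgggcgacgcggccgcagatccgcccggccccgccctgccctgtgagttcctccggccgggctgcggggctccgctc
The core began 59 bases before the start in VEGFC, 117 in EPAS1, 13 in EGLN1 and 26 in KDM3A. The SLC2A1 window had none, and that of BNIP3 had 6 matches, 2 of them overlapping. Genes that rose and genes that fell were found both with and without the core: ALDOC and LDHA, which fell, had 5 matches each and GAPDH 2, while PDK1, which rose, had 0. An E2F site was searched on both strands as TTTCCCGC, TTTGGCGC, TTTCGCGC or TTTGCCGC. It stood in 2 of the 38 windows, those of GAPDH and PFKM (5.26%). Among the 34 windows of tested members the share was 5.88%, beside 4.81% of the promoters of tested genes. The forkhead site TGTTTAC, on either strand, stood in 0 of the 38 windows and in 1.82% of the promoters of tested genes.

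The knockdown and the arrays were checked first. With OHT, FOXO1 signal was 501 ± 32.7 (SD, n = 4) in scrambled cells, and the hairpins left 32.4% (shFOXO33) and 47.1% (shFOXO707) of it. FOXO3 signal with OHT was 1793 ± 45.2 (SD, n = 4) in scrambled cells, of which 17.1% and 45.1% were left. Without OHT, 47.7% and 37.9% of FOXO1 and 30.7% and 60.9% of FOXO3 were left on the single arrays. Scrambled cells without OHT had lower means, 103 for FOXO1 and 449 for FOXO3. With OHT, FOXO1 under shFOXO33 (163) and shFOXO707 (236) and FOXO3 under shFOXO707 (810) lay above these means. FOXO3 under shFOXO33 with OHT (307) lay below. With the hairpins pooled, FOXO3 without OHT was not called lower (limma without the filter, adjusted p = 0.108). Of 8 osteoblast markers on the array 6 lay above the filter, among them ALPL, COL1A1 and SPARC, while RUNX2 did not. Of the 5 blood and 6 endothelial markers on the array none did, and of 5 epithelial markers EPCAM, KRT8 and KRT18 did. Of 3 red cell and neural markers NEFL and OLIG2 lay above the filter. The median signal of an array was 137 to 143 without OHT and 115 to 120 with OHT.

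With OHT, scrambled cells gained transcripts of several HIF branch genes and lost those of both glucose transporters, while the glycolytic enzymes went in both directions. VEGFC, a lymphatic growth factor, rose 10.2-fold, EPAS1 6.04-fold and EGLN1 4.29-fold, whereas SLC2A3 was 7.21-fold and SLC2A1 3.55-fold lower, all on the log2(signal + 16) scale. Of the 38 genes, 14 rose and 11 fell at a Benjamini-Hochberg adjusted p under 0.05 (limma, two-sided), 65.8% in all, and 11 of the 25 changed at least 2-fold. The background was large: 70.5% of the 7720 genes were called in this comparison, 24% higher and 46.4% lower. The members' median log2 difference was 0.08, against -0.23 over all genes. When each array was centred on its median, which removes the shift of all genes, 21 of the 38 were called higher and 5 lower, and of all genes 63.1% were called, 33.3% higher and 29.8% lower. With quantile normalization the counts were 14 and 9, close to the first ones, and of all genes 67.7% were called, 27.4% higher and 40.3% lower. The split of the 38 genes and that of all genes thus both moved less with quantile normalization than with centring. Marker sums moved with OHT in scrambled cells too: the epithelial sum went from a range of 6780 to 7334 to one of 5154 to 5436, the osteoblast sum from a range of 19820 to 20299 to one of 17212 to 18071, and the sum of red cell and neural markers, NEFL and OLIG2 among them, from a range of 2685 to 3064 to one of 4513 to 4683. Their part in the OHT results was not tested.

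**Figure D1:**
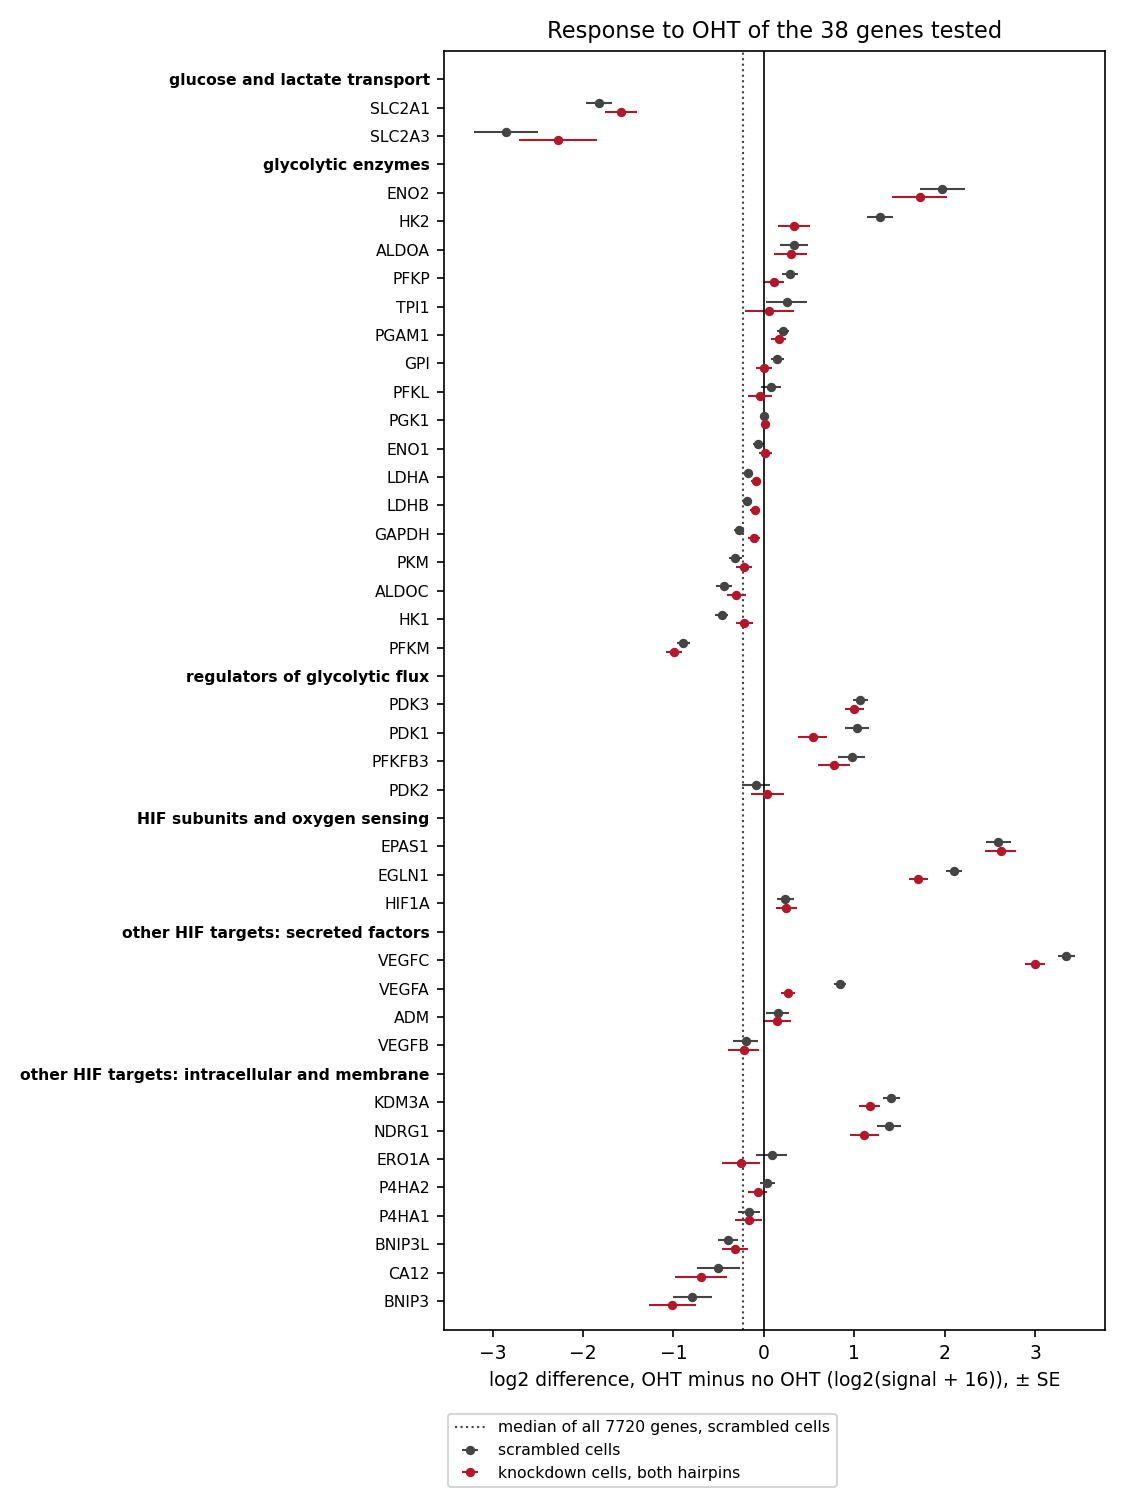
Log2 difference between OHT and no OHT (log2(signal + 16), points with standard errors) for the 38 genes tested, grouped by role, in scrambled cells (grey, 4 against 4 arrays) and in knockdown cells with both hairpins pooled (red, 4 against 2 arrays). The dotted line is the median of all 7720 genes in scrambled cells, -0.23. VEGFC, EPAS1 and EGLN1 lie farthest to the right, and SLC2A3 and SLC2A1 farthest to the left.

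Both glucose transporters that could be tested fell. SLC2A3 signals were 731, 949, 875 and 859 in scrambled cells without OHT and 111, 113, 92.2 and 101 with it. The shFOXO33 arrays had 329.9 without OHT and 68.6 and 79.4 with it, and the shFOXO707 arrays 1221 without and 164 and 210.4 with it. Every array with OHT lay below every array without it. With OHT the shFOXO33 arrays lay below and the shFOXO707 arrays above the scrambled ones. The log2 difference was -2.85 (SE 0.35, adjusted p = 6.8e-06) in scrambled cells, and its other 2 probe sets gave -3.44 and -3.81. SLC2A1 signals fell from 551, 571, 577 and 497 to 97.9, 169, 161 and 156 in scrambled cells, 1 array lying well below the other 3. Hairpin arrays had 513 (shFOXO33) and 661 (shFOXO707) without OHT, and with OHT 205 and 188 under shFOXO33 and 167 and 179 under shFOXO707, again with no overlap between the treatments. The log2 difference was -1.83 (SE 0.14, adjusted p = 6.1e-08) in scrambled cells, while the second and dimmer probe set, at a mean signal of 51.7, changed by -0.31 and was not called.

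Among the 17 glycolytic enzymes, 4 rose, 7 fell and 6 were not called, with a median log2 difference of 0.00014. The fit shares its estimate of the spread over all groups, so a gap between the pooled hairpins widens the errors in scrambled cells too. A missed call is therefore not an absent change. ENO2, the enolase of neurons and many tumours, rose most. Its signals went from 489, 554, 508 and 524 to 1949, 2125, 2014 and 2244 in scrambled cells, from 296 to 1536 and 1457 with shFOXO33 and from 934 to 2214 and 2054 with shFOXO707. All arrays with OHT lay above all arrays without it, by 1.97 (SE 0.25, adjusted p = 8.1e-06) on the log2 scale in scrambled cells. ENO1, the widespread enolase, had 8151 ± 152 (SD, n = 4) without and 7815 ± 236 with OHT and was not called (log2 difference -0.061, adjusted p = 0.37).

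The hexokinases, which open the pathway, moved apart. HK2, the inducible form, rose from 253, 239.9, 234 and 219 to 589, 703, 539.9 and 573 in scrambled cells, a log2 difference of 1.29 (SE 0.15, adjusted p = 3.1e-06). With OHT it was lower under both hairpins, at 324 and 323 (shFOXO33) and 469 and 493 (shFOXO707), against 263 and 365 without OHT. The shFOXO33 arrays with OHT thus lay below the shFOXO707 array without it. A second and dim HK2 probe set changed by -0.37 and was not called. HK1, the constant form, fell from 1593, 1604, 1735 and 1574 to 1136, 1113, 1161 and 1279 in scrambled cells, by 0.47 on the log2 scale (adjusted p = 7.9e-05), with no overlap.

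Of the phosphofructokinases, which commit glucose to glycolysis, PFKM fell from 1009 ± 58.5 to 538 ± 42.2 (SD, n = 4 each), a log2 difference of -0.89 (SE 0.073, adjusted p = 1.0e-07). PFKP rose from 1039.7 ± 119.6 to 1270.1 ± 48.2 (0.29, adjusted p = 0.01). PFKL was not called, at 269 ± 45.5 and 282 ± 22.5, but its second probe set, about as bright, fell (-0.28, adjusted p = 0.041). The liver, muscle and platelet subunits therefore did not share a direction. ALDOC, the aldolase of brain, fell by 0.44 (adjusted p = 0.00048). ALDOA, the muscle and ubiquitous form, missed the threshold (0.33, adjusted p = 0.063), at 5731 to 6066 without and 7118 to 7553 with OHT in scrambled cells. Its second and almost equally bright probe set rose (0.37, adjusted p = 0.048).

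The remaining steps lie close together. PKM, pyruvate kinase, fell by 0.32, GAPDH by 0.27, LDHB by 0.19 and LDHA by 0.18 on the log2 scale, all past the threshold, and PGAM1, phosphoglycerate mutase, rose by 0.21. These sizes are about that of the shift of all genes (-0.23), and after centring on the array medians ALDOC, GAPDH, LDHA, LDHB and PKM were no longer called, with LDHA and LDHB turning to 0.07 and 0.05. With quantile normalization ALDOC, LDHA and PGAM1 lost their calls. PGK1, phosphoglycerate kinase, was at 7362 ± 237 without and 7364 ± 270.4 with OHT (SD, n = 4 each). TPI1 and GPI were not called (0.25 and 0.15), though their scrambled arrays did not overlap between the treatments. TPI1 had 5245 to 5565 without and 6259 to 6803 with OHT, and GPI 1802 to 1871 and 1959 to 2167. A second and dimmer PKM probe set, at a mean signal of 104, fell further, with log2 differences of -1.37 in scrambled and -0.95 in knockdown cells, both called.

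Of the 4 tested enzymes that steer the flow of glucose carbon, 3 rose. PFKFB3, which makes the activator of phosphofructokinase, and PDK1 and PDK3, kinases that switch off pyruvate dehydrogenase and so keep pyruvate out of mitochondria, were called, and PDK2 was not. PDK3 went from 169.9, 187, 194 and 159 to 386, 401, 412 and 357 in scrambled cells, a log2 difference of 1.07 (SE 0.086, adjusted p = 9.3e-08). Arrays with OHT had 288 and 276 under shFOXO33 and 266 and 297 under shFOXO707, against 121 and 146 without OHT. Every array with OHT lay above every array without it, and the hairpin arrays were below the scrambled ones in both treatments. PDK3's other 2 probe sets rose as well, by 0.54 and 1.09. PFKFB3 rose from 559, 451, 513 and 487 to 1023, 963, 1056 and 954 (0.97, adjusted p = 4.6e-05). PDK1 rose from 61.5 ± 10.8 to 141 ± 8.31 (SD, n = 4 each; 1.03, adjusted p = 9.7e-06). PFKFB2 and PFKFB4, below the filter at signals of 39.8 to 73.8 and 4.39 to 23.4 over the 14 arrays, were not called in a fit without the filter. A second and dimmer PFKFB2 probe set, at a mean signal of 28.3, fell in scrambled cells (-0.86, limma, adjusted p = 0.0064).

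**Figure D2:**
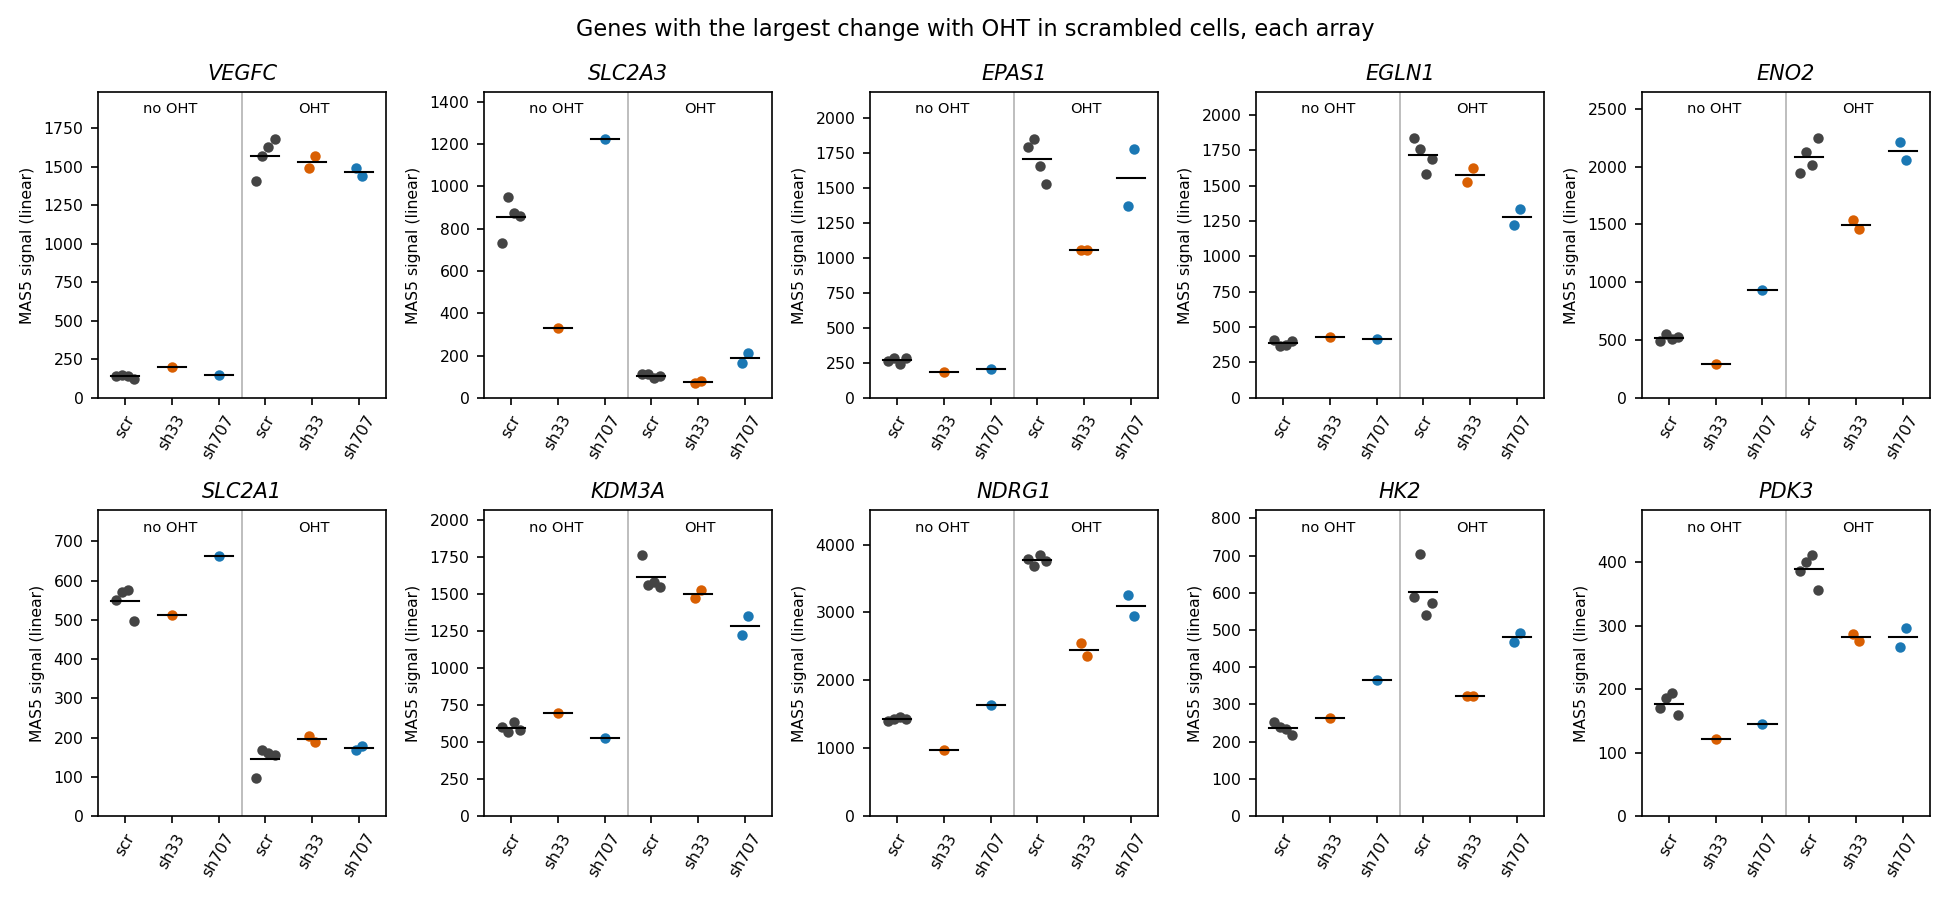
MAS5 signal (linear) on each of the 14 arrays for the 10 genes with the largest change with OHT in scrambled cells; points are arrays, short lines are group means, and scr, sh33 and sh707 are the scrambled, shFOXO33 and shFOXO707 viruses. In 9 of the 10 genes the arrays with and without OHT do not overlap, and in HK2 the shFOXO33 arrays with OHT (323 and 324) lie below the shFOXO707 array without it. The genes were picked for their difference in these same arrays, so the separation is a description and no test.

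All 3 HIF subunits and oxygen sensors above the filter rose. EPAS1, the HIF-2 alpha subunit, went from 264, 287, 243 and 284 to 1796, 1853, 1659 and 1534 in scrambled cells. It went from 184 to 1059 and 1059.7 under shFOXO33 and from 208 to 1374 and 1778 under shFOXO707. Arrays with and without OHT were far apart in each virus, by 2.60 (SE 0.14, adjusted p = 1.9e-09) in scrambled cells, and its dim second probe set rose by 1.07. EGLN1, the prolyl hydroxylase that restrains HIF, went from 409.6, 368, 371 and 402 to 1839.8, 1759.8, 1579 and 1689 in scrambled cells, from 431 to 1527 and 1624 under shFOXO33 and from 415 to 1225 and 1337 under shFOXO707. Again no array overlapped between treatments, with 2.10 (SE 0.088, adjusted p = 1.5e-10) in scrambled cells. HIF1A, the HIF-1 alpha subunit, rose less, from 6858, 6770.5, 6901 and 6819.9 to 8309, 7923, 7999.6 and 8012 in scrambled cells (a log2 difference of 0.24, adjusted p = 0.036). Its call was lost when any 1 of the 8 scrambled arrays was left out (adjusted p up to 0.0781), and with quantile normalization. The scrambled arrays did not overlap between treatments, and the spread behind this p-value is not theirs alone. It includes the gap between the pooled hairpins, at 5068 (shFOXO33) and 7025 (shFOXO707) without OHT. With OHT these had 6269 to 6510 and 7624 to 8109 in that order. VHL, the ubiquitin ligase subunit, at no more than 62.9 on any array, was below the filter and was not called without it.

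Of the secreted factors above the filter, VEGFC and VEGFA rose, and VEGFB and ADM (adrenomedullin, a vasodilator peptide) were not called. VEGFC signals were 143, 150.4, 141 and 125 without OHT and 1407, 1569, 1626 and 1678 with it in scrambled cells. With shFOXO33 they were 202 without and 1489 and 1568 with OHT, and with shFOXO707 148 and 1490.4 and 1436. The treatments were separate in all viruses, by 3.35 (SE 0.093, adjusted p = 2.9e-12) in scrambled cells, and the OHT arrays of the 3 viruses overlapped. VEGFA, the main angiogenic factor, went from 752, 854, 756 and 756 to 1449, 1445, 1338 and 1403 in scrambled cells, a log2 difference of 0.84 (SE 0.062, adjusted p = 3.7e-08) with no overlap. Its other 3 probe sets, which are dimmer, changed by 0.37, 0.37 and 0.43, of which the second was not called. VEGFB went from 274 ± 64.5 to 232 ± 23.7 and ADM from 69.7 ± 10.9 to 79.1 ± 11.0 (SD, n = 4 each). ANGPTL4 stayed below the filter, at 14.4 to 43.8.

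The 8 other HIF targets split, with 2 higher, 2 lower and 4 not called. KDM3A, a demethylase of histone H3, rose from 600.2, 569.8, 635 and 585 to 1767, 1559, 1579 and 1546 in scrambled cells, from 697 to 1476 and 1529.7 with shFOXO33 and from 529.6 to 1221 and 1352 with shFOXO707. NDRG1, a stress and differentiation gene, rose from 1405, 1436, 1461 and 1429 to 3786, 3688, 3844 and 3753 in scrambled cells, from 977 to 2550.0 and 2355 with shFOXO33 and from 1641 to 3258 and 2944 with shFOXO707. In both genes all arrays with OHT were above all those without, by 1.41 (SE 0.093, adjusted p = 1.3e-08) for KDM3A and 1.38 (SE 0.13, adjusted p = 4.2e-07) for NDRG1 in scrambled cells. BNIP3 and BNIP3L, which mark mitochondria for removal, fell together. BNIP3 went from 473, 490.0, 534 and 473 to 272, 280.3, 287 and 271 in scrambled cells, a log2 difference of -0.79 (SE 0.21, adjusted p = 0.0047), and BNIP3L from 3189, 3110.3, 3265 and 3318 to 2507, 2334, 2381 and 2544, one of -0.40 (SE 0.11, adjusted p = 0.0068). Both pairs of groups were separate, and the BNIP3L call was lost after centring on array medians. CA12, a carbonic anhydrase of the cell surface, went from 253, 314, 313 and 296 to 220.3, 177, 201 and 211, which did not overlap but missed the threshold (-0.50, adjusted p = 0.071). The collagen prolyl hydroxylases P4HA1 and P4HA2 and the oxidase ERO1A, which work in the endoplasmic reticulum, were not called, with log2 differences of -0.16, 0.039 and 0.090.

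Across transport, enzymes and regulators together, 7 of 23 tested genes rose and 9 fell, while of the 15 tested HIF subunits, sensors and other HIF targets 7 rose and 2 fell. Against the background of 24% higher and 46.4% lower, no set test was made, and nothing is called particular to either group. Of the 25 calls, 24 were kept whichever 1 array was left out, and 17 were kept under every alternative run.

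The response to OHT was measured in knockdown cells too, where the hairpins were pooled, with 4 arrays against 2. VEGFC rose by 3.0, EPAS1 by 2.62, ENO2 by 1.73, EGLN1 by 1.71, KDM3A by 1.17 and NDRG1 by 1.11 on the log2 scale. SLC2A3 fell by 2.28, SLC2A1 by 1.58, BNIP3 by 1.01 and PFKM by 0.99. In all, 10 of the 38 genes were called higher and 6 lower (42.1%), where 57.9% of all genes were called, 20.6% higher and 37.3% lower. After median centring the counts were 19 higher and 4 lower, beside 51.6% of all genes, 29.7% higher and 21.9% lower. The members' median was 0.02, against -0.20 over all genes. HK2 was not called (0.33, adjusted p = 0.13), nor was HIF1A (0.25, adjusted p = 0.078). Without 1 array 4 calls were lost: BNIP3 and PDK1 without the shFOXO707 array without OHT (adjusted p = 0.0789 and 0.126), ALDOC without it or the second shFOXO33 array with OHT (up to 0.196), and PKM in 8 of 14 cases (up to 0.321), among them 3 scrambled arrays with OHT, both shFOXO707 arrays with OHT and the shFOXO33 array without it.

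Whether FOXO1 and FOXO3 knockdown changed the response itself was tested by the interaction, which subtracts the response of scrambled cells from that of knockdown cells. VEGFA was the 1 gene of the 38 that was called, where 0.35% of all 7720 genes were. Hairpin arrays had 1029 (shFOXO33) and 1038 (shFOXO707) without OHT, both above all scrambled arrays of that treatment. With OHT they had 1199 and 1212 (shFOXO33) and 1250.0 and 1328 (shFOXO707), all below the scrambled arrays. On this probe set, with the hairpins pooled, the starting level was called higher in knockdown cells, while the lower end level was not called. Taken singly with OHT, shFOXO33 was called lower than scrambled cells (-0.22, limma, adjusted p = 0.0078) and shFOXO707 was not called (-0.13). The response was 0.84 in scrambled and 0.27 in knockdown cells, an interaction of -0.58 (SE 0.098, adjusted p = 0.027). Each part alone gave 0.40 without OHT (adjusted p = 0.0061) and -0.17 with OHT (adjusted p = 0.059, not called). The interaction was lost in 10 of the 14 cases with 1 array left out (adjusted p up to 0.0855), namely any scrambled array with OHT, 3 of the 4 without it (all but replicate 2), the shFOXO707 array without OHT, the second shFOXO33 and the first shFOXO707 array with OHT. With the mean of all VEGFA probe sets the interaction was -0.38 (adjusted p = 0.19). Its other probe sets gave interactions of -0.54, 0.03 and -0.43 and differences without OHT of 0.35, -0.21 and -0.03, none of them called. Their differences between knockdown and scrambled cells with OHT were -0.19, -0.18 and -0.46, and the last was called lower (limma, adjusted p = 0.0044).

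HK2 had the largest interaction in size, -0.95 (SE 0.23, adjusted p = 0.1), and was not called. Its 95% interval ran from -1.45 to -0.45. EGLN1 (-0.39), PDK1 (-0.49) and VEGFC (-0.35) had intervals below 0 before adjustment but adjusted p of 0.29, 0.41 and 0.41. At an unadjusted p under 0.05 there were 5 such genes of 38, and 813 of 7720. For EPAS1 the interval ran from -0.46 to 0.51, and for SLC2A3, where the hairpins differ, from -0.63 to 1.77. The responses in scrambled and in knockdown cells, the knockdown effects and the interaction share arrays, so their values are not independent of each other.

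With OHT present, knockdown cells had less HK2, NDRG1, PDK3, ALDOC, PKM and EGLN1 and more HK1 than scrambled cells. These were 6 lower and 1 higher of 38 (18.4%), where 22.7% of all genes were called, 8.01% lower and 14.7% higher. The members' median was -0.02, against 0.04 over all genes. HK2 had the largest difference, -0.58 (SE 0.15, adjusted p = 0.013). NDRG1 followed at -0.45 (SE 0.13, adjusted p = 0.025) and PDK3 at -0.44 (SE 0.086, adjusted p = 0.0028). The scrambled and knockdown arrays given above for these 3 genes do not overlap with OHT.

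ALDOC and PKM were lower in both treatments. ALDOC signals with OHT were 99.2, 113, 115 and 115 in scrambled cells, 83.5 and 74.4 with shFOXO33 and 81.0 and 83.0 with shFOXO707. Without OHT they were 151, 162, 148 and 162 in scrambled cells, 96.5 with shFOXO33 and 109.9 with shFOXO707. No knockdown array reached a scrambled array of its treatment, with log2 differences of -0.39 (SE 0.088, adjusted p = 0.0064) with OHT and -0.53 (SE 0.11, adjusted p = 0.0089) without. PKM signals with OHT were 4330.3, 3966, 4057 and 4082 in scrambled cells, 3627 and 3630.0 with shFOXO33 and 3138 and 3067 with shFOXO707. Without OHT they were 5569.6, 4838, 5051 and 5050.2 in scrambled cells, 4158 with shFOXO33 and 3670.3 with shFOXO707. Again the knockdown arrays lay below all scrambled arrays of their treatment, by 0.29 with OHT (adjusted p = 0.0095) and 0.39 without it (adjusted p = 0.014). Between knockdown and scrambled cells the dimmer PKM probe set gave 0.07 with OHT and -0.35 without and was not called.

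HK1, in contrast, was higher in knockdown cells with OHT. Its signals there were 1291 and 1300.4 with shFOXO33 and 1532 and 1535 with shFOXO707, all above the scrambled arrays, and without OHT they were 1583 and 1702, within the scrambled range. The difference with OHT was 0.26 (SE 0.075, adjusted p = 0.023). EGLN1 was lower with OHT by 0.27 (adjusted p = 0.042), but its groups overlapped. Leaving out 1 array ended the EGLN1 call in 9 of 14 cases (adjusted p up to 0.119), which were all scrambled arrays except replicate 3 with OHT, and both shFOXO707 arrays with OHT. The HK1 call was lost without scrambled replicate 1, 2 or 3 or either shFOXO707 array with OHT (up to 0.0666), and the NDRG1 call without scrambled replicate 1, 3 or 4 or either shFOXO33 array with OHT (up to 0.0683). The other 4 calls were kept, and none of the 7 was kept when only the 6 arrays with OHT numbered 1 and 2 were used.

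Without OHT, VEGFA was higher and ALDOC, PKM and PDK3 were lower in knockdown cells, 4 of 38 genes (10.5%) where 7.81% of all genes were called, 4.84% higher and 2.97% lower. The members' median was 0.03, against 0.02 over all genes. Only 2 knockdown arrays, 1 for each hairpin, entered here. VEGFA kept its call whichever array was left out, and lost it with the mean of all its probe sets (adjusted p = 0.43). Calls were lost for ALDOC without the shFOXO33 array (0.0695), for PKM without the shFOXO707 array (0.103) and for PDK3 in 12 of 14 cases, all but scrambled replicate 4 and the shFOXO707 array without OHT (up to 0.264).

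**Figure D3:**
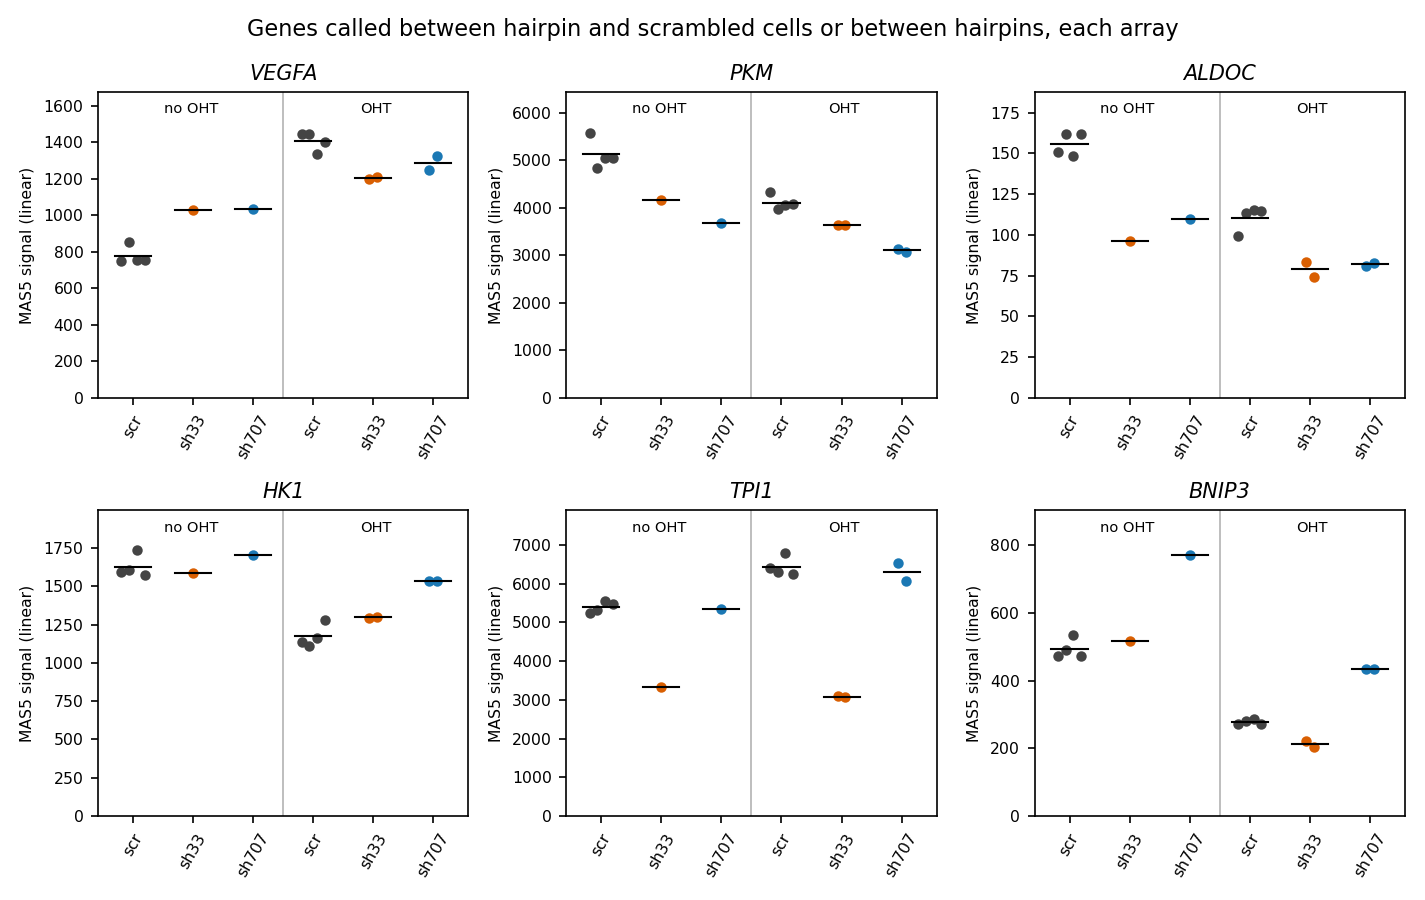
MAS5 signal (linear) on each of the 14 arrays for 6 genes called between knockdown and scrambled cells or between the hairpins; points are arrays, short lines are group means, and scr, sh33 and sh707 are the scrambled, shFOXO33 and shFOXO707 viruses. On this VEGFA probe set the hairpin arrays are above the scrambled ones without OHT (called) and below them with OHT (not called with the hairpins pooled). PKM and ALDOC are lower in both treatments, and in TPI1 only the shFOXO33 arrays, at 3064 to 3326, stand below the rest.

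The hairpins were then compared with each other. With OHT, SLC2A3, TPI1, CA12 and BNIP3 were higher under shFOXO707 than under shFOXO33 by about 1 on the log2 scale, and BNIP3L and ALDOA were lower by about 0.50. Of the 38 genes, 13 were higher and 8 lower under shFOXO707 (55.3%), where 43.5% of all genes were called, 22.1% higher and 21.4% lower. The median was 0.04, against -0.01 over all genes, and 3 of the 21 calls were at least 2-fold. The single arrays without OHT, which this test did not use, had the same direction in 21 of the 21, as they did for 94.1% of the 3361 genes called in all.

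**Figure D4:**
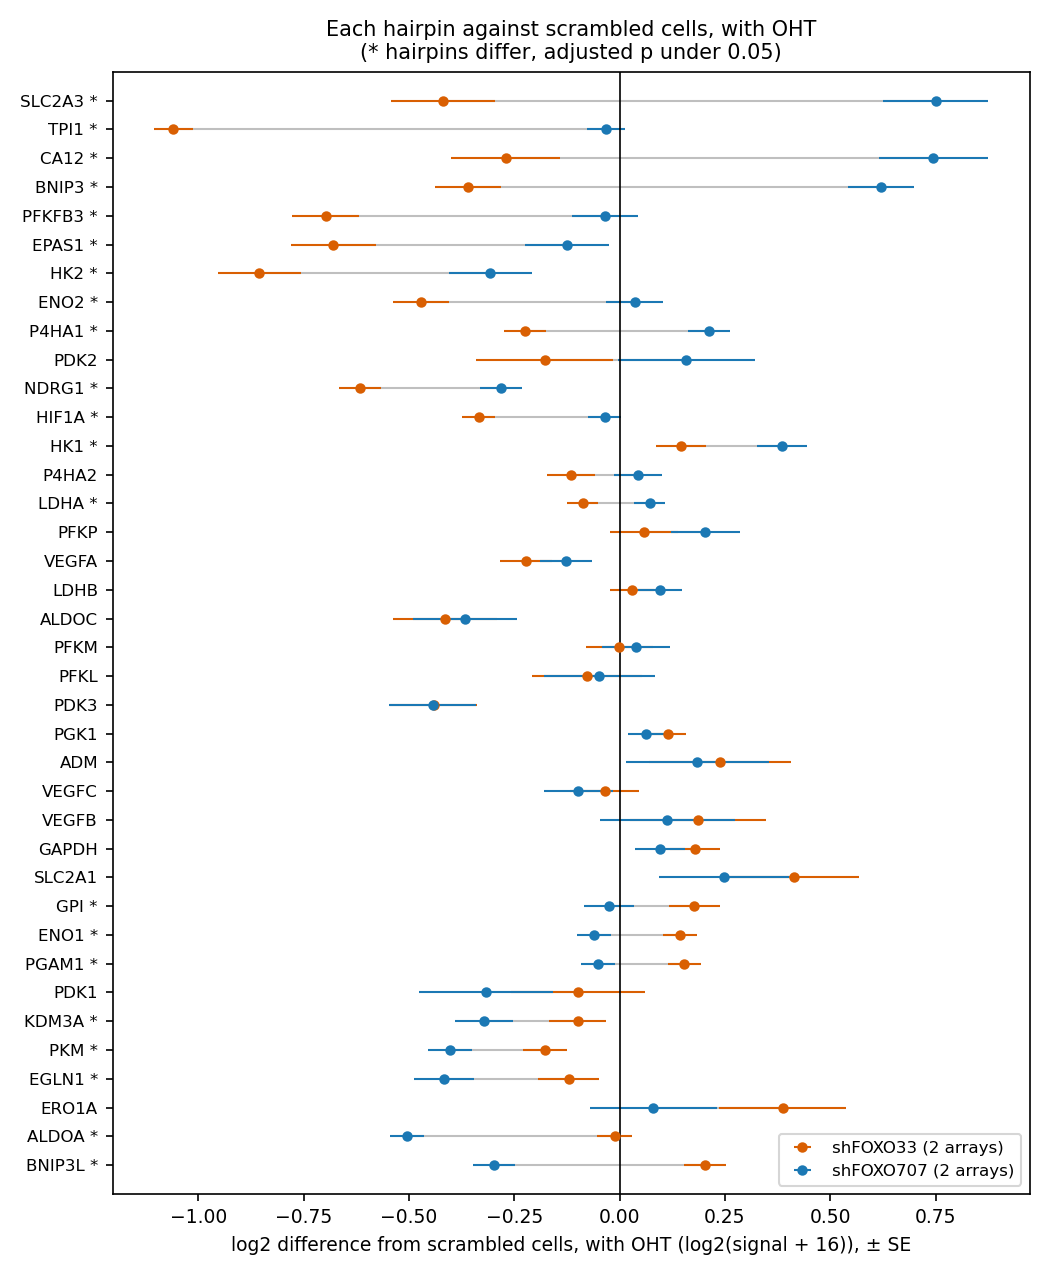
Log2 difference from scrambled cells with OHT (log2(signal + 16), points with standard errors, 2 against 4 arrays) of shFOXO33 (orange) and shFOXO707 (blue) for the 38 genes, sorted by the difference between the hairpins. An asterisk marks the 21 genes in which the hairpins differed; PDK3 is at -0.44 for both, while TPI1 is lower with shFOXO33 alone.

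TPI1, triosephosphate isomerase, had the smallest adjusted p between the hairpins. Its signals with OHT were 3101 and 3064 under shFOXO33 and 6525 and 6069.8 under shFOXO707, beside 6397, 6308, 6803 and 6259 in scrambled cells. Without OHT they were 3326 under shFOXO33, 5353 under shFOXO707 and 5245, 5324, 5565 and 5489 in scrambled cells. The shFOXO33 arrays were low in both treatments, and the shFOXO707 arrays lay within the scrambled range or just outside it. The hairpins differed by 1.03 (SE 0.053, adjusted p = 4.5e-10) with OHT, and shFOXO33 gave -1.06 and shFOXO707 -0.033 against scrambled cells, the latter not called. A second bright probe set of TPI1 gave a difference of 0.90.

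In 4 genes, SLC2A3, BNIP3, BNIP3L and P4HA1, both hairpins were called against scrambled cells with OHT, in opposite directions. SLC2A3 was -0.42 under shFOXO33 and 0.75 under shFOXO707 against scrambled cells with OHT, both called, with a difference of 1.17 (SE 0.14, adjusted p = 7.6e-06) between the hairpins. BNIP3 signals with OHT were 222 and 204 under shFOXO33, below the scrambled arrays, and 435 and 436 under shFOXO707, above them (log2 differences -0.36 and 0.62). Without OHT they were 517 under shFOXO33 and 771 under shFOXO707. CA12 signals with OHT were 188 and 144 under shFOXO33 and 387 and 315 under shFOXO707, and without OHT 327 and 487 in that order, and the hairpins differed by 1.01 (SE 0.15, adjusted p = 4.9e-05). Against scrambled cells CA12 was called under shFOXO707 (0.74) and not under shFOXO33 (-0.27). BNIP3L ran the other way, at 2784 and 2837 under shFOXO33 and 1909.8 and 2056 under shFOXO707 with OHT, and at 3238 and 2682 in that order without, a difference of -0.50 (SE 0.057, adjusted p = 3.3e-06). P4HA1 was at 1148 and 1135 with shFOXO33 and 1520.0 and 1583 with shFOXO707, on either side of the scrambled arrays (1375, 1273, 1301 and 1403), and at 1241 and 1798 without OHT (1503, 1505, 1472 and 1510.3 in scrambled cells). Its hairpins differed by 0.44 (SE 0.059, adjusted p = 2.0e-05). The pooled knockdown value of such a gene is a mean of opposite differences.

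In other genes shFOXO33 alone was low. With OHT, EPAS1 was -0.68 under shFOXO33 and -0.12 under shFOXO707, PFKFB3 -0.70 and -0.035, and ENO2 -0.47 and 0.036. For these 3 genes the shFOXO707 values were not called. PFKFB3 signals with OHT were 622 and 597 under shFOXO33 and 950.2 and 999 under shFOXO707, and without OHT 428 and 461 in that order. HIF1A signals were 6510.1 and 6269 under shFOXO33 and 8109 and 7624 under shFOXO707 with OHT, and 5068 and 7025 without, so that the shFOXO33 arrays lay below the scrambled ones in both treatments. The hairpins differed in HIF1A by 0.30 (SE 0.044, adjusted p = 5.5e-05). HK2 and NDRG1 were lower than in scrambled cells under both hairpins, and more so under shFOXO33 (-0.86 against -0.31 for HK2, -0.62 against -0.28 for NDRG1).

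ALDOA was low with shFOXO707 alone. Its signals with OHT were 5305 and 5112 under shFOXO707, 7155 and 7519.8 under shFOXO33 and 7382, 7118, 7532 and 7553 in scrambled cells, and without OHT 3794 under shFOXO707, 6675 under shFOXO33 and 6066, 5838, 5826 and 5731 in scrambled cells. The shFOXO707 arrays were the lowest in each treatment, and the hairpins differed by -0.49 (SE 0.047, adjusted p = 5.6e-07). Its second probe set gave -0.47. EGLN1, PKM and KDM3A were also lower under shFOXO707 than under shFOXO33, by 0.30, 0.23 and 0.22.

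Smaller differences were found in enzymes along the pathway. PGAM1 had 6411 and 6383 with shFOXO33 and 5599 and 5494 with shFOXO707 under OHT, against 5745, 5737, 5783 and 5728 in scrambled cells, and without OHT 5898 and 4779.8 in that order, against 4693, 5029, 5105 and 5067. ENO1 had 8849 and 8419 with shFOXO33 and 7665 and 7319 with shFOXO707 under OHT, against 7724, 7597, 8148 and 7789.6 in scrambled cells, and without OHT 8518 and 7427, against 8042, 8163, 8037 and 8362. GPI, which follows hexokinase, had 2344 and 2293 with shFOXO33 and 2178 and 1860.1 with shFOXO707 under OHT, against 1959, 1980.4, 2167 and 2094 in scrambled cells, and without OHT 2255 and 2074, against 1858, 1869, 1871 and 1802. All 3 were lower under shFOXO707 than under shFOXO33, with log2 differences of -0.21, -0.20 and -0.20. LDHA, a lactate dehydrogenase subunit, had 8389.9 and 8184 with shFOXO33 and 9417 and 9087 with shFOXO707 under OHT, against 8939, 8624, 8798 and 8865 in scrambled cells, and without OHT 9104 and 9488, against 10198, 9673, 9953 and 9966. The PGAM1 and LDHA arrays with OHT also lay on either side of the scrambled ones, and of these 4 differences from scrambled cells that of PGAM1 under shFOXO33 was called (0.15). LDHA was higher under shFOXO707 than under shFOXO33 by 0.16, and HK1 by 0.24. Without 1 of the 4 hairpin arrays with OHT, calls were lost for EGLN1 and LDHA (second shFOXO33 or first shFOXO707 array; adjusted p up to 0.0858 and 0.0557), HK1 (first shFOXO33 array; 0.0505), GPI (all but the first shFOXO707 array; up to 0.351) and KDM3A (all but the second shFOXO707 array; up to 0.23).

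For PDK3 and ALDOC, both lower in knockdown cells with OHT, the hairpins were not called apart. PDK3 was -0.44 under each, with an interval of the difference from -0.26 to 0.25, and ALDOC was -0.41 and -0.37, with an interval from -0.25 to 0.35. Other values of the arrays moved with the hairpin. The summed signal of the 8 osteoblast markers was 9077 to 9280 with shFOXO33 and OHT, 16041 to 17106 with shFOXO707 and 17212 to 18071 in scrambled cells. The ratio of 3′ to 5′ signal of ACTB, a measure of RNA quality, was 1.95 and 2.04 on the shFOXO707 arrays with OHT and 1.49 to 1.74 on all others. The same ratio of GAPDH hardly set them apart, at 1.04 and 1.11 on the shFOXO707 arrays with OHT and 0.98 to 1.10 on all others. The 5 epithelial markers summed to 5868 to 6221 with shFOXO33 and OHT and to 3469 to 3556 with shFOXO707. The part of these in the hairpin differences was not tested.

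Other genes of these pathways, from lists of 107 genes of which 78 were tested, were called as 19 higher and 39 lower with OHT in scrambled cells, where 70.5% of all genes were called, with a median of -0.23, that of all genes. Glycogen genes had 0 higher and 6 lower of 10, led by UGP2 (-0.83), PYGB (-0.76) and PGM1 (-0.47), which make and break down glycogen. Genes of pyruvate entry into mitochondria had 1 higher and 6 lower of 10, and the pentose phosphate pathway 2 higher and 5 lower of 8, with RPIA, ribose phosphate isomerase, at -1.37. Other HIF targets had 8 higher and 14 lower of 27, EDN1 (endothelin) at -3.49 and BHLHE40 at -2.65 being the lowest and TGFA, a growth factor, at 2.61 the highest. Other HIF regulators had 5 higher and 5 lower of 15, with CITED2, which competes with HIF for coactivators, at -1.52 and the ubiquitin ligase SIAH2, which acts on prolyl hydroxylases, at 1.42. Other glycolytic and transporter isoforms had 3 higher and 4 lower of 9, with ENO3, the muscle enolase, at 1.79 and the transporter SLC2A10 at -1.55. HIF targets in this wider list thus moved in both directions.

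With OHT, knockdown cells had 11 of these 78 genes higher and 9 lower, near the 22.7% of all genes, and 0 of 78 were called in the interaction, beside 0.35% of all genes. TGFA was lower by 0.82 and ADPGK, a hexokinase that uses ADP, by 0.88, while RPIA was higher by 1.29 and PLOD1, a collagen hydroxylase, by 0.58. Between the hairpins 19 were higher and 17 lower under shFOXO707, near the 43.5% of all genes. RBX1, a subunit of the ligase that VHL guides, differed most, with mean signals of 367 under shFOXO33 and 2841 under shFOXO707 (log2 difference 2.90).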

How the data were processed

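The deposited table holds signal intensity values from MAS5, which the submitters' processing notes name as the authors' tool without a version. Of 22277 probe sets 19064 named 1 gene, and symbols were updated through RefSeq (GRCh38.p14). Values were taken as log2(signal + 16), probe sets above the 40th percentile of mean signal (79.1) were kept, and the one with the highest mean stood for each gene. limma 3.58.1 in R 4.3.3 was fitted over all 7720 genes and 14 arrays in 4 groups, with the hairpins pooled and a mean-variance trend, and in 6 groups for the hairpin difference. p-values are two-sided and Benjamini-Hochberg adjusted over all genes, and a call is an adjusted p under 0.05. Intervals are 95%. Precision is limited by how few arrays there are. The fit was tested on simulated data.

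The members and gene lists were chosen with earlier results of these data known. The 42 members with a probe set naming them alone were described; of the other listed genes, those named had the largest change past the threshold in their list. The main fit did not pair arrays by replicate number, and the labels do not say whether the numbers pair them. Same-numbered scrambled arrays had correlations of deviations from -0.0146 to 0.0462, and others from -0.0473 to 0.0406. Alternatives covered the pseudocount, filter, scaling, probe set choice, trend, grouping, a replicate block and each array left out.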

Additional observations from a re-analysis of the deposited data

Results flagged for a closer look

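In 4 of 76 gene and group sets of 4 scrambled arrays, 1 array stood apart, with a gap to the nearest other array, divided by the whole range, above Dixon's 95% critical value for 4 samples. Chance alone gives about 1 in 20. VEGFA was high on replicate 2 without OHT, at 854 against 752 to 756 (ratio 0.958). With OHT, replicate 1 was low for SLC2A1, at 97.9 against 156 to 169 (ratio 0.842), and for ALDOC, at 99.2 against 113 to 115 (ratio 0.896), and high for KDM3A, at 1767 against 1546 to 1579 (ratio 0.842).

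The response of VEGFA to OHT differed between knockdown and scrambled cells by -0.575 on the log2 scale in the interaction test (adjusted p = 0.027, limma). The call was lost in 10 of the 14 cases with 1 array left out. It was also lost with the mean of all probe sets and with 1 value per hairpin and treatment. None of the other VEGFA probe sets was called in the interaction.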

How the results depend on the processing

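Scaling moved the most calls for OHT. With each array centred on its median, 5 genes in place of 11 were lower in scrambled cells and 19 in place of 10 higher in knockdown cells, and 3 differences changed sign: PKM in knockdown cells (0.022, adjusted p = 0.86) and, in scrambled cells, LDHA (0.066, adjusted p = 0.22) and LDHB (0.053, adjusted p = 0.36). The knockdown calls depended on how the hairpins were grouped. With 6 title groups, OHT in knockdown cells had 11 lower, knockdown with OHT 4 higher and 14 lower, knockdown without OHT 8 higher and 9 lower, and the interaction 1 higher and 4 lower. With shFOXO33 alone these were 7 higher and 14 lower with OHT, 5 higher and 10 lower without, and 1 higher and 5 lower in the interaction. With shFOXO707 alone there were 5 higher with OHT, 11 higher without, and 5 lower in the interaction. With 1 value per hairpin and treatment, 0 were higher with OHT and 0 lower in the interaction. With the mean of all probe sets, 0 were higher without OHT and 0 lower in the interaction, and with the filter at the 60th percentile 1 was lower without OHT. The background moved with the grouping too. Against scrambled cells with OHT, the fit with 6 title groups called 2149 of all 7720 genes higher and 1663 lower under shFOXO33. Under shFOXO707 it called 1897 higher and 1327 lower, and with the hairpins pooled these were 1138 and 618. Shares of all genes are not given here beside the member counts above or below. No change in them is therefore called particular to the members. The causes were not tested.

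With the replicate number as a block, OHT in scrambled cells had 17 higher and 13 lower and the hairpin difference 14 higher and 9 lower. The knockdown with OHT then had 0 higher and 0 lower, and so it had without the block on the same arrays, an alternative chosen after seeing the data. That fit has fewer arrays. Whether the numbers pair the hairpin arrays cannot be told from their correlations. With 2 arrays for each hairpin, deviations from the group mean are exact opposites. Same- and differently numbered arrays must then give values of opposite sign and equal size (0.0469 and -0.0469).

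Leaving out 1 array gave 13 to 15 higher and 11 to 12 lower with OHT in scrambled cells, 10 to 12 and 5 to 9 in knockdown cells, 0 to 1 and 4 to 9 for knockdown with OHT, 1 to 4 and 2 to 5 without, 0 to 0 and 0 to 2 for the interaction, and 12 to 14 and 5 to 8 between the hairpins. Knockdown without OHT rests on 2 arrays, and genes with dim signal have wider errors.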

Other observations

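Among genes of the same pathways outside the 45, the heme oxygenase HMOX1 had mean signals of 1320 under shFOXO33 and 294 under shFOXO707 with OHT, against 853 in scrambled cells. HIF1AN, the asparagine hydroxylase that blocks HIF's contact with coactivators, had 174 and 345, against 246. GSK3B, which restrains glycogen synthase, had 975 and 501, against 913. The hairpins differed by -2.11, 0.93 and -0.94 on the log2 scale (limma, adjusted p = 5.1e-10, 2.7e-06 and 4.5e-07). ARNT, the partner of the HIF alpha subunits, was higher in knockdown than in scrambled cells with OHT by 0.44 (adjusted p = 0.017), with means of 321 and 234.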
